A study of Mus musculus with 33 samples.

Results

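This account covers 9 genes of the reproductive Nlrp family, Nlrp4a, Nlrp4b, Nlrp4c, Nlrp4e, Nlrp4f, Nlrp9a, Nlrp9b, Nlrp9c and Nlrp14, in single mouse oocytes with and without a functional Nlrp5 gene. They were chosen by gene name, as the entries of the annotated count table whose gene symbol is 1 of these 9, and all 9 were found among 35321 genes. All 9 also passed a minimum of 10 on the mean normalized count over the oocytes, as 13896 genes did. The libraries came from 33 single germinal vesicle (GV) oocytes of 3-week-old C57BL6/Babr females that were not superovulated. Of the oocytes, 10 were Nlrp5+/+, 16 were Nlrp5+/- and 7 were Nlrp5-/-. The mutant allele is a CRISPR/Cas9 deletion of 5 bp in Nlrp5 that brings in a premature stop codon and is present in every cell of the mouse. The Nlrp5-/- and Nlrp5+/- females were littermates, whereas the Nlrp5+/+ females came mostly from the colony in which the line was made. In the NSN stage the chromatin does not surround the nucleolus, and in the later SN stage it does, by which time the oocyte is largely silent in transcription. Stage is not part of the sample labels. It was taken from the assignment made by the study, which inferred it from marker genes in the same libraries, and Nlrp4c is 1 of those markers, while the other 8 members are not. By that assignment there were 4 NSN and 6 SN oocytes for Nlrp5+/+, 9 and 7 for Nlrp5+/-, and 4 and 2 for Nlrp5-/-, with 1 Nlrp5-/- oocyte unstaged. For the Nlrp5+/- oocytes the stage was read off the colour bar of the study's staging heatmap, in which oocytes 55 and 61 had a stage that differed from their place among the other oocytes. The Nlrp5+/- group sizes that the study states in its text and a legend are smaller than those read here, so the stage comparisons with Nlrp5+/- oocytes are the less certain ones. The labels name no mouse, so oocytes of a group may share a mouse, each group counts as 1 sample, and no test was made between groups. Standard deviations over oocytes are given as a description.

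NLRP proteins carry a pyrin domain, a nucleotide-binding NACHT domain and leucine-rich repeats. Several members of the family act in inflammasomes of immune cells, whereas the genes described here belong to a branch that is transcribed in growing oocytes and inherited by the embryo as maternal RNA and protein. Nlrp5 encodes NALP5 (MATER), a core protein of the subcortical maternal complex (SCMC), and females that lack it are infertile because their embryos arrest at early cleavage. Nlrp14 is a maternal-effect gene in mice, Nlrp4f has been placed with the SCMC, and the Nlrp4 and Nlrp9 genes arose by repeated duplication in rodents.

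Of the 9 genes, 8 lie on chromosome 7 and Nlrp4f lies on chromosome 13 (chr13:65177111-65205977, minus strand, in GRCm38 as all coordinates here). Nlrp4e (chr7:23301192-23362277) ended 23.6 kb before the start of Nlrp5 (chr7:23385889-23441922), on the same strand. Nlrp9c (chr7:26322473-26403700), Nlrp4a (chr7:26435113-26476142) and Nlrp9a (chr7:26535023-26575615) formed a cluster 2.88 to 3.09 Mb beyond Nlrp5. Nlrp9b (chr7:19991465-20073306), Nlrp4b (chr7:10687789-10730168) and Nlrp4c (chr7:6045161-6105150) lay 3.31, 12.7 and 17.3 Mb before it. Nlrp14 (chr7:107166990-107198102) stood apart, 83.7 Mb beyond Nlrp5.

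The genes varied together from oocyte to oocyte, as described further on, so the sequences around their start sites are shown first. RefSeq promoter windows of GRCm38.p6, from 250 bases before to 50 bases after an annotated start, were at hand for 8 of the 9 genes, in 10 windows. Nlrp14 had no window. They were searched on both strands for TAATTG, then for TAATTA and then for TGATTG, which are letters preferred by the oocyte homeobox factor NOBOX, and lastly for CANNTG, which is the E-box read by helix-loop-helix factors such as FIGLA. Matches are in capitals below, on either strand, and adjoining matches can overlap. A match is a description of letters and not evidence of binding.

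The Nlrp4a (second start), Nlrp4b (first start) and Nlrp4c windows are shown because they share letters around a TGATTG match and near their end, and the Nlrp4e window because it does not.
Nlrp4a, chr7:26435364-26435663, + strand: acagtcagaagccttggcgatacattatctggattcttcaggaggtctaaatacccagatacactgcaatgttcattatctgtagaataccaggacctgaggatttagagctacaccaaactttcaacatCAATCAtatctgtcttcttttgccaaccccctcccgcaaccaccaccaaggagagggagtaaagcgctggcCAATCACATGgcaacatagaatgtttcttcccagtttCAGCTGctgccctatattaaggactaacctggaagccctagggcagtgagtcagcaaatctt
Nlrp4b, chr7:10687543-10687842, + strand: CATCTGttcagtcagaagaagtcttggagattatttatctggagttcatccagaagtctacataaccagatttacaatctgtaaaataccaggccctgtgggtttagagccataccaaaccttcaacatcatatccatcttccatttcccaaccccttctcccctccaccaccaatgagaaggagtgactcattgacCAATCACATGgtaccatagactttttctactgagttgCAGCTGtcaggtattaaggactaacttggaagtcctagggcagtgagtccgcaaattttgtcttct
Nlrp4c, chr7:6044911-6045210, + strand: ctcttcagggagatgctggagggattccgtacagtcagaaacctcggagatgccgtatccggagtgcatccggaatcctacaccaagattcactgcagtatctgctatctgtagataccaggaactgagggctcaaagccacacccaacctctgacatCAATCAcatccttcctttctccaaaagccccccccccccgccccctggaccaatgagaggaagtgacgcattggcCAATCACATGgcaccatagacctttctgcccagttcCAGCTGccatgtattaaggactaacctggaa
Nlrp4e, chr7:23300942-23301241, + strand: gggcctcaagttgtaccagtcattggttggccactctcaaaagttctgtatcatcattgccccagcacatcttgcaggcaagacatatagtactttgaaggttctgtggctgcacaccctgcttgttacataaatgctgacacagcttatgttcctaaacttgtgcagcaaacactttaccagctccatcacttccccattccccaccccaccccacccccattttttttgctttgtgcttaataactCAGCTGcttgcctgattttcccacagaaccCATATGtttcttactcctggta

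The Nlrp9a and Nlrp9c windows are shown because they share the longest run of bases of any pair, on opposite strands of the same cluster.
Nlrp9a, chr7:26534773-26535072, + strand: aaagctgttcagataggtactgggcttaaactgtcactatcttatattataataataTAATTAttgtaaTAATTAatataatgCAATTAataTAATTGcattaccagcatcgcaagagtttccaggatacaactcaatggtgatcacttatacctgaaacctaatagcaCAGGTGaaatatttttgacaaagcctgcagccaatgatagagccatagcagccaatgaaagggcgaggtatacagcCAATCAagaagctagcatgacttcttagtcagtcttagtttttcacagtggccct
Nlrp9c, chr7:26403651-26403950, - strand: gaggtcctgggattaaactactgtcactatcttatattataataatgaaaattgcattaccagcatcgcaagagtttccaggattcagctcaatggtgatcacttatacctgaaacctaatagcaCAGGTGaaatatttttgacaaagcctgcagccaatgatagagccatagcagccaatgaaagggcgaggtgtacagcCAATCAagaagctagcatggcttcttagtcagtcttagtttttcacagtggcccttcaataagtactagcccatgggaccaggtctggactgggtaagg

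TGATTG was found in 7 of the 10 windows of the members and in 4613 of all 32851 windows. CANNTG was found in all 10 of the members' windows, and in 72.3% of all windows. TAATTG was found in 2 of the 10 windows (2628 of all windows) and TAATTA in 1 (1738 of all). In the printed Nlrp4a, Nlrp4b and Nlrp4c windows a TGATTG match on the minus strand overlapped an E-box, and together they read CAATCACATG. The same 3 windows shared the stretch tattaaggactaac, which no other gene's window held. Nlrp9a and Nlrp9c shared an unbroken run of 106 bases, and only those 2 windows of all contained it. The Nlrp4e window shared at most 10 bases in a row with the window of any other member. Windows of paralogs that arose by duplication are not independent, so these counts over members carry no test.

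Each library held between 4223595 and 15573360 counts on genes (median 7724335), and 0.426 to 1.94% of these fell on the 9 members. Library names carry a pair of index barcodes, and no label says what shared indexes stand for. Each of the 10 first indexes occurred with 1 genotype only, so genotype and first index cannot be told apart. Oocyte markers (Gdf9, Bmp15, Zp1 to Zp3 and others) summed to between 15776 and 30480 CPM (counts scaled to the library total) in every library, with none of the 9 at 0 in any group. A list of 13 granulosa markers summed to 181 to 357 CPM in Nlrp5+/+ oocytes, 221 to 392 in Nlrp5+/- and 275 to 1395 in Nlrp5-/-. In Nlrp5+/+ NSN oocytes most of that came from Esr2, Nr5a2 and Cyp19a1, while Amh, Inhbb, Foxl2 and Fst were at 0. Inha, which encodes the inhibin alpha subunit of granulosa cells, averaged 5.18 normalized counts in Nlrp5+/+ NSN oocytes and 377 in Nlrp5-/- NSN oocytes, and it averaged 267 in Nlrp5-/- SN oocytes against 43.3 in Nlrp5+/- SN oocytes. The highest sums were those of the unstaged Nlrp5-/- oocyte (1395 CPM) and of Nlrp5-/- oocytes 14 (630), 7 (434) and 13 (420). The list of 12 theca, stroma, vessel and blood markers summed to 46.8 to 83.1 CPM in Nlrp5+/+, 62.3 to 223 in Nlrp5+/- and up to 186 in Nlrp5-/- oocytes. Their part in the genotype comparisons was not tested, and values without oocytes 7, 13 and 14 are given below where the members past the fold change. Within a library, less RNA of a member and more RNA of other genes cannot be told apart.

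Nlrp5 itself was checked first. Its normalized count ranged from 10114 to 29131 in the Nlrp5+/+ oocytes, from 5062 to 13472 in the Nlrp5+/- oocytes and from 1362 to 2556 in the Nlrp5-/- oocytes. The deletion removes only 5 bp, so the remaining transcript is still counted. No Nlrp5-/- oocyte overlapped the others.

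All 9 members were transcribed in every oocyte, at mean levels from 110 to 14593 normalized counts per kb of reference transcript. Nlrp14 was the most abundant, at 14593 ± 4682 per kb (mean ± SD, n = 33 oocytes), and was the highest member in 33 of 33 oocytes. By normalized count it ranked 4 among the 13896 genes and took 53.3% of all counts on the members. Nlrp4f came next at 2986 ± 753 per kb. Nlrp9c (2274 ± 705) and Nlrp9b (2236 ± 627) did not differ beyond their spread, since Nlrp9c was the higher in 17 of 33 oocytes. Nlrp4b stood at 1682 ± 575 per kb and was below Nlrp9b in 32 of 33 oocytes. Nlrp9a (1427 ± 507) and Nlrp4a (1421 ± 341) could not be ordered, with Nlrp9a the higher in 18 of 33. The remaining members were much lower. Nlrp4e reached 276 ± 140 per kb and Nlrp4c 110 ± 48.2, and Nlrp4c was the lowest member in 29 of 33 oocytes. The counts behind these values were large enough that counting error was small beside the spread over oocytes, the lowest being 126 counts of Nlrp4c in 1 library. The 856 counts of Nlrp4c summed over the Nlrp5-/- SN oocytes, for example, had an exact 95% Poisson interval of 800 to 915, which covers counting error only.

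**Figure D1:**
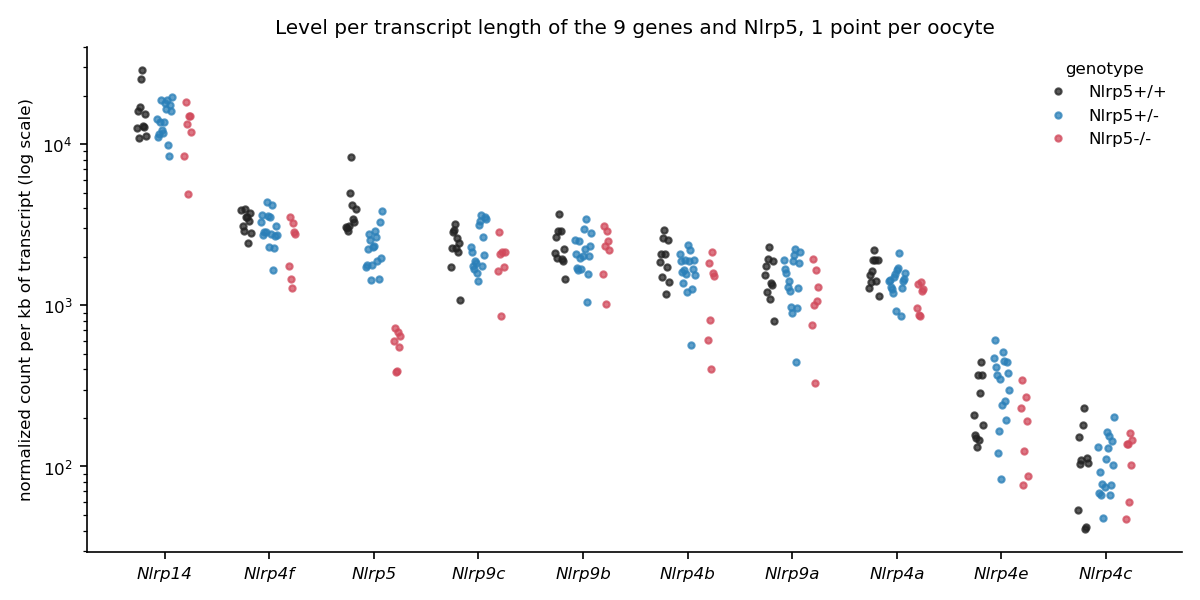
Normalized count per kb of reference transcript (vertical axis, log scale) of the 9 members and Nlrp5, with 1 point per oocyte and the 33 oocytes coloured by genotype. Nlrp14 has the highest mean and Nlrp4e and Nlrp4c have the lowest, though points of different genes overlap. Among these 10 genes only Nlrp5 has its Nlrp5-/- points clear of the other genotypes.

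The first question was whether loss of Nlrp5 changed the level of its relatives. At the NSN stage the 9 members ran from -0.49 to 0.05 in log2 fold change, with 6 lower and 3 higher in Nlrp5-/- oocytes. None of the 9 reached a log2 fold change of 0.5 in either direction between Nlrp5-/- and Nlrp5+/+ NSN oocytes, the fold used throughout, where 13.2% of all genes were at -0.5 or less and 15.8% at 0.5 or more. Among genes with a mean of at least 1000 normalized counts, as 7 of the members have (all but Nlrp4c and Nlrp4e), these shares were 3.70 and 7.12%. This rested on single oocytes, since 3 members were at -0.5 or less without Nlrp5+/+ oocyte 87 and 2 were without Nlrp5+/+ oocyte 70 or without Nlrp5-/- oocyte 13 or 29. With summed counts all 9 were lower and 2, Nlrp4a and Nlrp4b, were at -0.5 or less. Without oocytes 13 and 14 together none of the 9 was past the fold, and Nlrp4b moved from -0.42 to -0.19. Their median log2 fold change was -0.24, beside 0.00 for all genes, and it ran from -0.32 to -0.03 when 1 oocyte was left out, the latter without Nlrp5-/- oocyte 14. Fold changes here are ratios of mean normalized counts plus 1.

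Nlrp4a was the member furthest below at this stage. It had 6403, 7879, 9151 and 4767 normalized counts in the Nlrp5+/+ NSN oocytes and 5607, 3597, 5784 and 5074 in the Nlrp5-/- NSN oocytes. The groups overlapped, and the log2 fold change was -0.49. Nlrp14 had 52879, 83598, 94599 and 37044 in Nlrp5+/+ and 60025, 43946, 49075 and 48939 in Nlrp5-/- NSN oocytes. Both of the high values belonged to oocytes 78 and 79, which carried the same first index, and the log2 fold change was -0.41. Nlrp9b (8968 ± 3092 against 9093 ± 1159, log2 fold change 0.02) and Nlrp9c (7072 ± 2760 against 7093 ± 1516, 0.00; mean ± SD, n = 4 oocytes each, Nlrp5+/+ first) had nearly equal means.

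At the SN stage more members were lower in Nlrp5-/- oocytes, but the group held only 2 oocytes and the count rested on 1 of them. There 5 of the 9 members (Nlrp4a, Nlrp4b, Nlrp4e, Nlrp4f and Nlrp9a) had a log2 fold change of -0.5 or less against Nlrp5+/+, where 18.7% of all genes did. Of the 7 members whose mean was 1000 normalized counts or more, 4 were among the 5, beside 15.3% of all genes at that level. The median of the 9 members was -0.52, beside 0.01 for all genes tested. Without Nlrp5-/- oocyte 7, 1 of the 9 members was at -0.5 or less (Nlrp4e) and Nlrp4c stood at 0.92, and the median was -0.26. Without oocyte 31, 7 members were at -0.5 or less, and Nlrp4c was at -0.71. Oocyte 7 had 434 CPM of granulosa markers against 364 in oocyte 31.

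The values show how far apart the pair of Nlrp5-/- SN oocytes stood. Nlrp4b had 2032 normalized counts in oocyte 7 and 5025 in oocyte 31, against a lowest, median and highest value of 3916, 5986 and 8757 in the 6 Nlrp5+/+ SN oocytes. Its log2 fold change was -0.85 with both oocytes and -0.34 without oocyte 7. Of the pair, oocyte 7 lay below the Nlrp5+/+ range and oocyte 31 within it.

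Nlrp4f, a gene placed with the SCMC, had 6259 and 9821 against 8713, 12605 and 14059, with a log2 fold change of -0.58 and of -0.29 without oocyte 7. Nlrp9a had 2162 and 3675 against 3450, 4153 and 5539, with a log2 fold change of -0.60 and of -0.26 without oocyte 7. In both genes oocyte 31 fell within the Nlrp5+/+ range.

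Nlrp4a was the only member with no overlap, which 7.61% of all genes also showed in this direction. It had 4014 and 5206 in the Nlrp5-/- SN oocytes and 5317, 6343 and 7895 in the Nlrp5+/+ SN oocytes, a log2 fold change of -0.52 that was -0.34 without oocyte 7. The higher of the Nlrp5-/- values was close to the lowest of the others.

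Nlrp4e, the neighbour of Nlrp5, was the member in which oocyte 7 had the higher of the 2 values. It had 784 normalized counts in oocyte 7 and 295 in oocyte 31, against 444, 838 and 1510 in Nlrp5+/+ SN oocytes. The log2 fold change was -0.73, with -1.60 without oocyte 7 and -0.19 without oocyte 31.

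The other members at SN were nearer to the Nlrp5+/+ level. Nlrp14 had 27661 and 38774 against 35658, 42114 and 55770 (log2 fold change -0.43), Nlrp9c a log2 fold change of -0.38 and Nlrp9b one of -0.20. Nlrp4c was the single member with a higher mean (349 against 278, 0.33), from 1 high and 1 low oocyte (528 and 170).

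Over all oocytes of a genotype, grouped by the labels alone, 2 of the 9 members had a log2 fold change of -0.5 or less in Nlrp5-/- against Nlrp5+/+, Nlrp4b (-0.65) and Nlrp4a (-0.53), where 11.6% of all genes and 9.09% of genes with a mean of at least 1000 did. The median of the 9 was -0.40. This group includes the unstaged oocyte, in which 7 of the 9 members (all but Nlrp4c and Nlrp4e) had their lowest value of the 33 oocytes. Of all genes tested, 9.02% had their lowest value there, and of genes with a mean of at least 1000, 22.3%. Nlrp14 stood at 16157, Nlrp4b at 1332 and Nlrp9a at 935 in that oocyte, which also had the highest granulosa sum and the lowest oocyte marker sum (15776 CPM). Without oocytes 7, 13 and 14 the 2 members at -0.5 or less were Nlrp4b, just at the threshold, and Nlrp4e (-0.54, from -0.37), while Nlrp4a stood at -0.47. Without the unstaged oocyte none of the 9 members was past the fold, with Nlrp4b just short of it and Nlrp4a at -0.47. The count also moved with other oocytes, from 1 without Nlrp5-/- oocyte 7 or 14 or Nlrp5+/+ oocyte 79, over 3 without Nlrp5-/- oocyte 30 or 31 or Nlrp5+/+ oocyte 80 and 4 without Nlrp5-/- oocyte 29, to 6 without Nlrp5-/- oocyte 13.

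**Figure D2:**
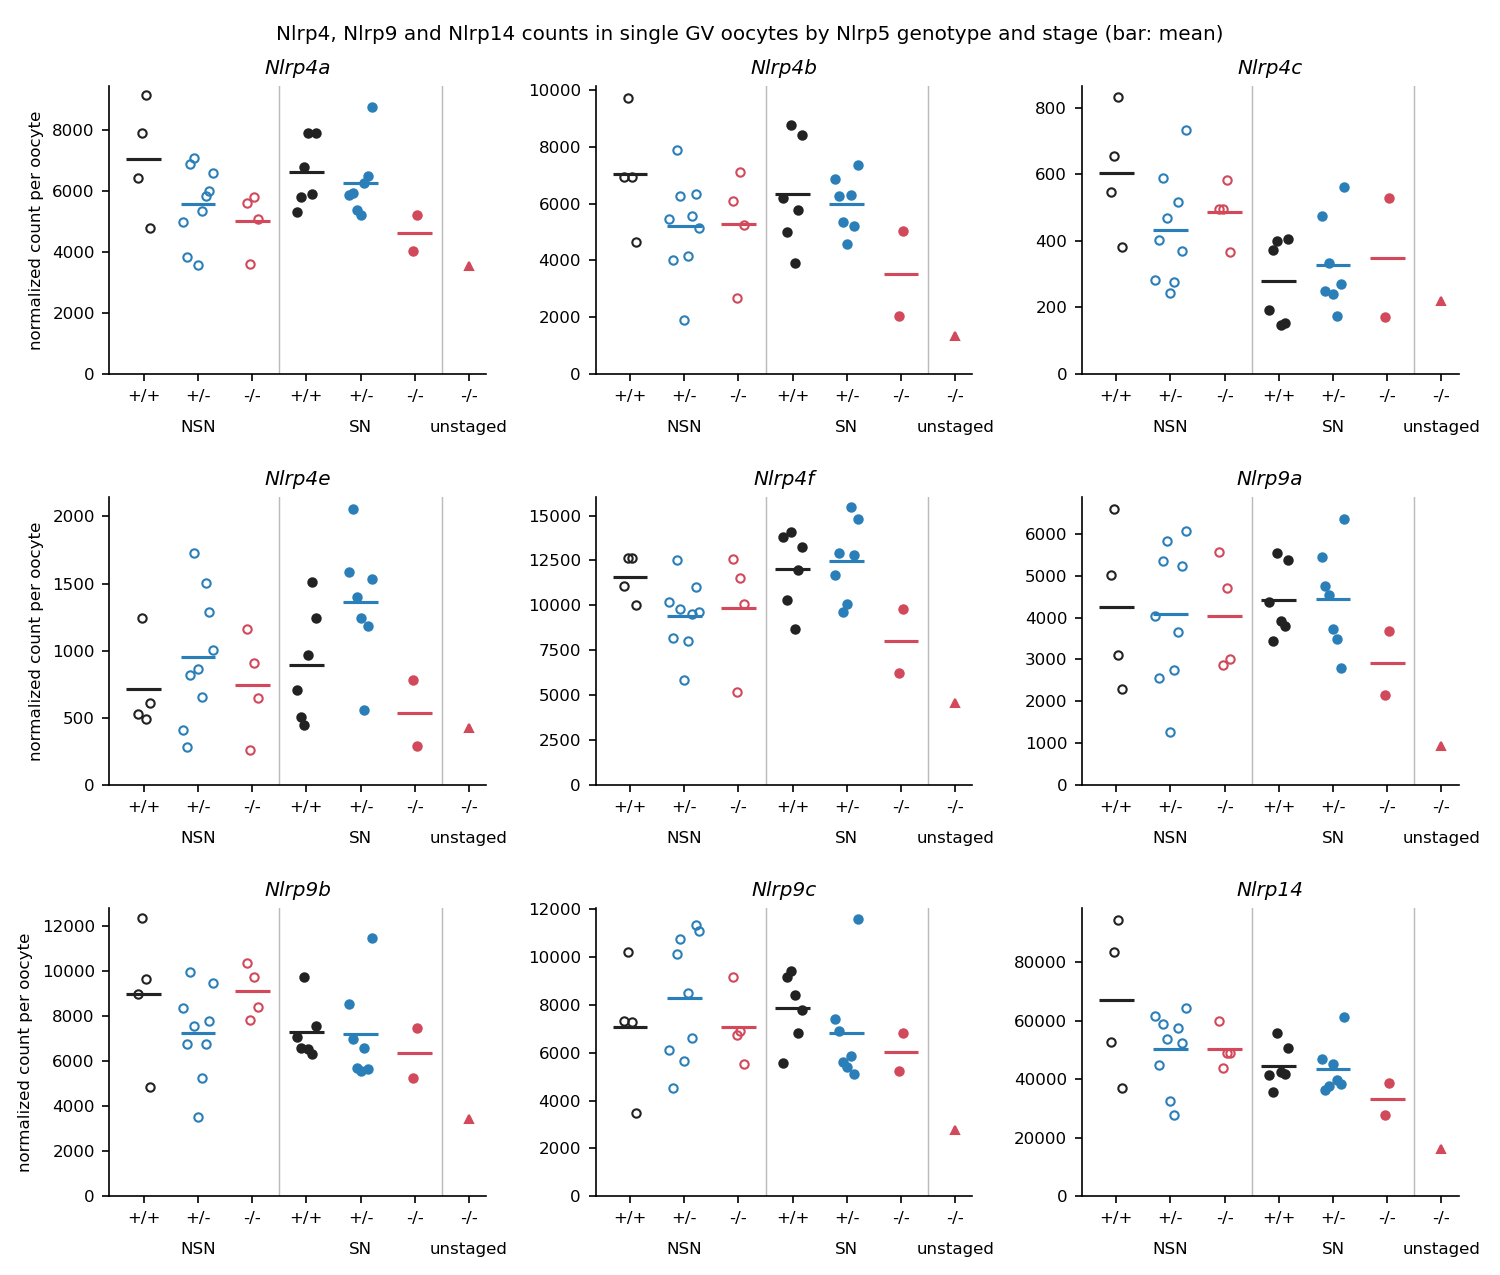
Normalized count in each oocyte (vertical axis, linear from 0) of each member, by Nlrp5 genotype within the NSN stage (open circles), the SN stage (filled circles) and for the unstaged Nlrp5-/- oocyte (triangle), with bars at group means. The groups overlap in nearly every panel, both Nlrp5-/- SN points lie below all Nlrp5+/+ SN points only for Nlrp4a, and the triangle is the lowest point in 7 of 9 panels.

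The heterozygous oocytes show the members at the intermediate dose of Nlrp5. At NSN none of the 9 reached the fold in either direction between Nlrp5+/- and Nlrp5+/+, where 20.1% of all genes and 7.74% of those with a mean of at least 1000 did, and their median was -0.30. Without Nlrp5+/+ oocyte 87, 4 members were at -0.5 or less, without Nlrp5+/+ oocyte 70 or Nlrp5+/- oocyte 53 it was 2, and without Nlrp5+/- oocyte 54, 62 or 64 it was 1, while without Nlrp5+/- oocyte 45 or 48 or Nlrp5+/+ oocyte 78, 1 was at 0.5 or more. At SN 1 of the 9 was past it, Nlrp4e, with a log2 fold change of 0.61. One of at least 0.5 was found for 7.03% of all genes and 0.280% of those with a mean of at least 1000. With a mean of 935, Nlrp4e is not in the latter class. Nlrp4e had a lowest, median and highest value of 560, 1403 and 2054 normalized counts in the 7 Nlrp5+/- SN oocytes and of 444, 838 and 1510 in the 6 Nlrp5+/+ SN oocytes, so the groups overlapped widely. Its log2 fold change was 0.47 without Nlrp5+/+ oocyte 77, 0.49 without Nlrp5+/+ oocyte 72 and 0.48 without Nlrp5+/- oocyte 38. The other 8 members lay between -0.20 and 0.24 at SN. Over all oocytes none of the 9 reached the fold (8.71% of all genes and 0.505% of those with a mean of at least 1000 did), and the median was -0.14. Leaving out Nlrp5+/- oocyte 45, 46 or 48 or Nlrp5+/+ oocyte 78, 85 or 86 put 1 member at 0.5 or more.

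Between Nlrp5-/- oocytes and those of their Nlrp5+/- littermates, none of the 9 was past the fold at NSN, where 27.3% of all genes and 13.7% of those with a mean of at least 1000 were. The members ran from -0.35 to 0.32, with a median of 0.00. Without Nlrp5-/- oocyte 13, 1 member was at -0.5 or less. At SN 4 of the 9, Nlrp4b, Nlrp4e, Nlrp4f and Nlrp9a, had a log2 fold change of -0.5 or less, beside 18.1% of all genes. Of the 7 members with a mean of at least 1000, 3 were among them, beside 12.6% of all genes at that level. The median was -0.44, and without oocyte 7 it was 1 of the 9, Nlrp4e, with Nlrp4c at 0.68 in the other direction, whereas without oocyte 31 it was 7, with Nlrp4c at -0.95. Without Nlrp5+/- oocyte 55, whose stage is uncertain, it was 3, without Nlrp9a. These are the same 2 Nlrp5-/- SN oocytes as in the comparison with Nlrp5+/+, so the 2 comparisons are not independent.

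With both Nlrp5-/- SN oocytes, the largest difference between these groups was that of Nlrp4e. Its mean was 539 in the Nlrp5-/- and 1367 ± 456 (SD, n = 7) in the Nlrp5+/- SN oocytes, a log2 fold change of -1.34, and -2.21 without oocyte 7. Nlrp5+/- oocyte 46 lay between the Nlrp5-/- values at 560. Nlrp4a was again the only member with no overlap, as were 5.63% of all genes in this direction, with 5206 as the higher Nlrp5-/- value and 5219 as the lowest Nlrp5+/- value. Over all oocytes Nlrp4e alone was past the fold (log2 fold change -0.82, 640 ± 336 in 7 Nlrp5-/- against 1133 ± 504 in 16 Nlrp5+/- oocytes, mean ± SD), where 10.3% of all genes and 7.07% of those with a mean of at least 1000 were. Its 7 values (258 to 1159) lay within or just below the range of the 16 (283 to 2054). Without Nlrp5-/- oocyte 13 the count was 3 members and without oocyte 29 it was 2.

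**Figure D3:**
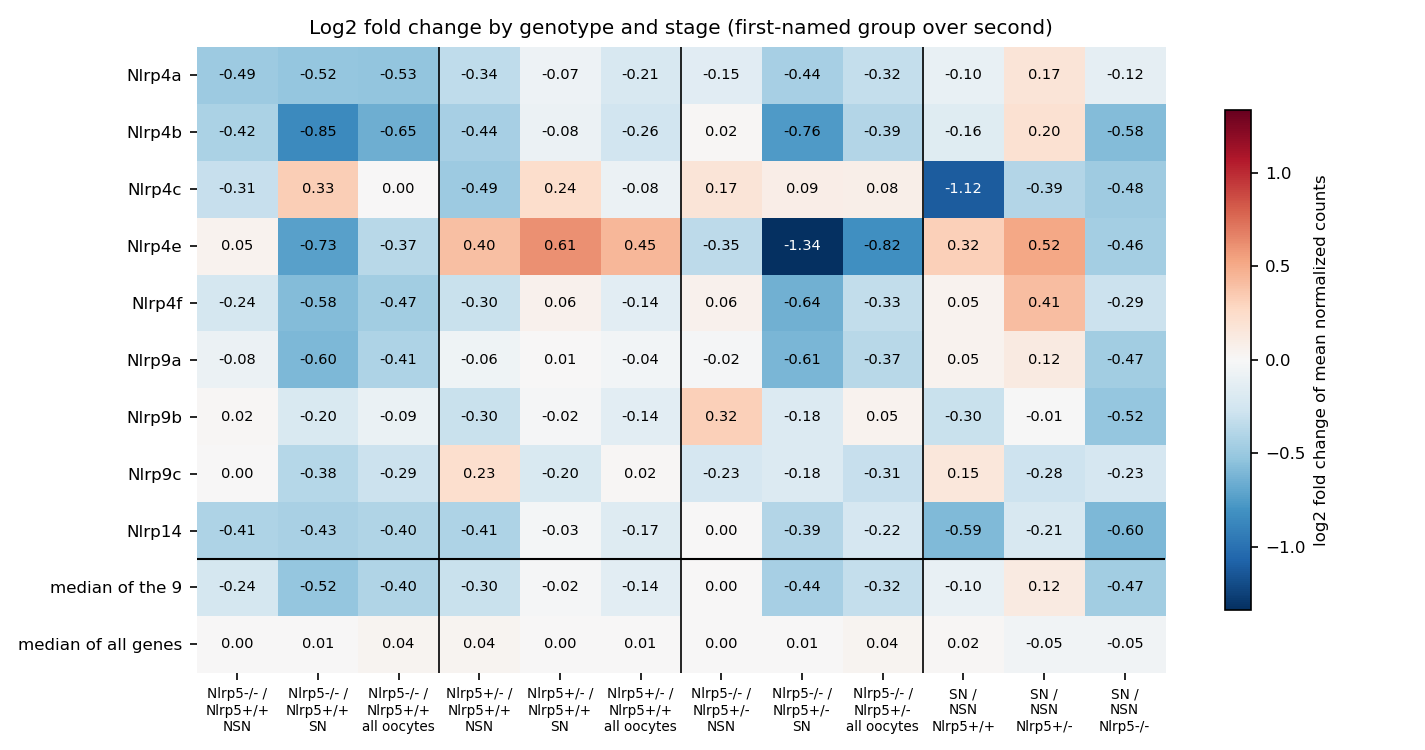
Log2 fold change of mean normalized counts (colour and printed value) of each member in the 12 comparisons, with the median of the 9 members and of all genes tested in the last 2 lines. Values lie on both sides of 0 at NSN between Nlrp5-/- and Nlrp5+/- oocytes and are mostly negative in the columns that hold the 2 Nlrp5-/- SN oocytes.

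The passage from NSN to SN marks the end of oocyte growth. In Nlrp5+/+ oocytes 2 of the 9 members, Nlrp4c and Nlrp14, had a log2 fold change of -0.5 or less in SN over NSN oocytes, as did 20.6% of all genes and 2.64% of those with a mean of at least 1000. Nlrp4c had 548, 655, 831 and 382 normalized counts at NSN and a lowest, median and highest value of 147, 282 and 407 at SN. Its log2 fold change was -1.12, but Nlrp4c was used by the study to assign the stages, so this difference is not independent of the staging. The groups overlapped in 1 NSN value. In Nlrp5+/- oocytes it was -0.39, and -0.63 without oocytes 55 and 61. In Nlrp5-/- oocytes it was -0.48, but it was 0.12 without oocyte 7 and -1.51 without oocyte 31.

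Nlrp14 was not among the staging markers. Its mean was 67030 ± 26671 (SD, n = 4) at NSN and 44609 ± 7248 (n = 6) at SN in Nlrp5+/+ oocytes, a log2 fold change of -0.59. The groups overlapped, and the value was -0.37 without oocyte 79, -0.46 without oocyte 78 and -0.79 without oocyte 87, which left 1, 1 and 3 members at -0.5 or less. Within the 3 first indexes that held both stages it was -0.46, 0.32 and -0.86. In Nlrp5+/- oocytes the mean was 50435 ± 12865 (n = 9) at NSN and 43678 ± 8696 (n = 7) at SN, a log2 fold change of -0.21.

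In Nlrp5+/- oocytes 1 member, Nlrp4e, had a log2 fold change of at least 0.5 (0.52), as 9.75% of all genes and 9.42% of those with a mean of at least 1000 did, and the median of the 9 was 0.12. None was past it in that direction when any 1 of oocytes 37, 38, 45, 48, 53, 55 or 61 was left out. Without both oocytes 55 and 61 Nlrp4e stood at 0.44, and Nlrp4c was the only member past the fold. Within the 2 first indexes that held both stages the mean log2 fold change was at least 0.5 for 3 members, Nlrp4a (0.56), Nlrp4e (0.88) and Nlrp4f (0.64), and in 1 of these indexes oocyte 55 was the only SN oocyte. In Nlrp5-/- oocytes the median was -0.47, with all 9 members lower at SN, as 53.5% of all genes were. Without oocyte 7, and within the first index that held both stages, 7 members were lower and 2 higher. At -0.5 or less were 3 of the 9 (Nlrp4b, Nlrp9b and Nlrp14), beside 23.6% of all genes and 6.51% of genes with a mean of at least 1000. The count at -0.5 or less was 1 without oocyte 7 or 29, 2 without oocyte 13 and 6 without oocyte 14, 30 or 31. Nlrp14 had 60025, 43946, 49075 and 48939 at NSN and 27661 and 38774 at SN, with no overlap and a log2 fold change of -0.60. Nlrp9b had 10366, 7849, 9735 and 8425 at NSN and 5273 and 7451 at SN, also with no overlap, and a log2 fold change of -0.52. Among all genes 10.7% were lower at SN with no overlap. Within the 1 first index that held both stages (oocytes 29 and 30 at NSN, 31 at SN) the values were -0.34 for Nlrp14, -0.29 for Nlrp9b and -0.30 for Nlrp4b, and only Nlrp4e was past the fold at -1.40.

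The members varied together from oocyte to oocyte. After the mean of each genotype and stage was subtracted from log2(normalized count + 1), all 36 pairs of members had a positive Pearson r over the 32 staged oocytes, from 0.03 to 0.89 with a median of 0.62. For comparison, the median over all 1588653 pairs of the 1783 genes with a mean of at least 1000 was 0.02, and 6.97% of those pairs were above 0.62. These correlations are descriptions, since oocytes may share a mouse and share a first index and the way size factors were set. Spearman's rho gave a median of 0.61 over the 36 pairs. Within the 9 Nlrp5+/- NSN oocytes alone the median r was 0.70, with all 36 pairs positive. Within the 7 Nlrp5+/- SN oocytes it was 0.65, with 34 of 36 positive and a lowest r of -0.37. Within the 6 Nlrp5+/+ SN oocytes it was 0.41, with 26 of 36 positive and a lowest r of -0.55.

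Some pairs were close to parallel. Nlrp4b and Nlrp4f, on different chromosomes, had an r of 0.89, Nlrp9a and Nlrp9b 0.87, Nlrp9b and Nlrp14 0.85, and Nlrp4b and Nlrp9a 0.83. Single oocytes show what this means. All 9 members were above their group mean in Nlrp5+/+ NSN oocyte 78, with a median log2 deviation of 0.51, and all 9 were below it in oocyte 87 of the same group, with -0.60. In Nlrp5+/- oocytes the same held for oocytes 55 (9 above, 0.51) and 48 (9 below, -0.28), and oocyte 56 had 8 of the 9 below (-0.65).

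Nlrp4e was the exception. Its r with the other 8 members ranged from 0.03 (Nlrp4c) to 0.40 (Nlrp4a) over the 32 staged oocytes. Single groups differed, with 0.06 (Nlrp9b) to 0.67 (Nlrp9c) in Nlrp5+/- NSN oocytes. The range was -0.37 (Nlrp4f) to 0.60 (Nlrp4c) in Nlrp5+/- SN and -0.55 (Nlrp9b) to 0.27 (Nlrp4a) in Nlrp5+/+ SN oocytes. Its log2 deviations had the widest spread of the members, with an SD of 0.70. This exceeded the SD of 99.5% of the genes with a mean of at least 1000, a class just above its own mean of 935. Nlrp4a, at 0.29, had an SD near the median of those genes (0.30). In oocyte 77 (Nlrp5+/+ SN) Nlrp4e was 0.87 below its group mean while the other 8 members were above theirs.

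**Figure D4:**
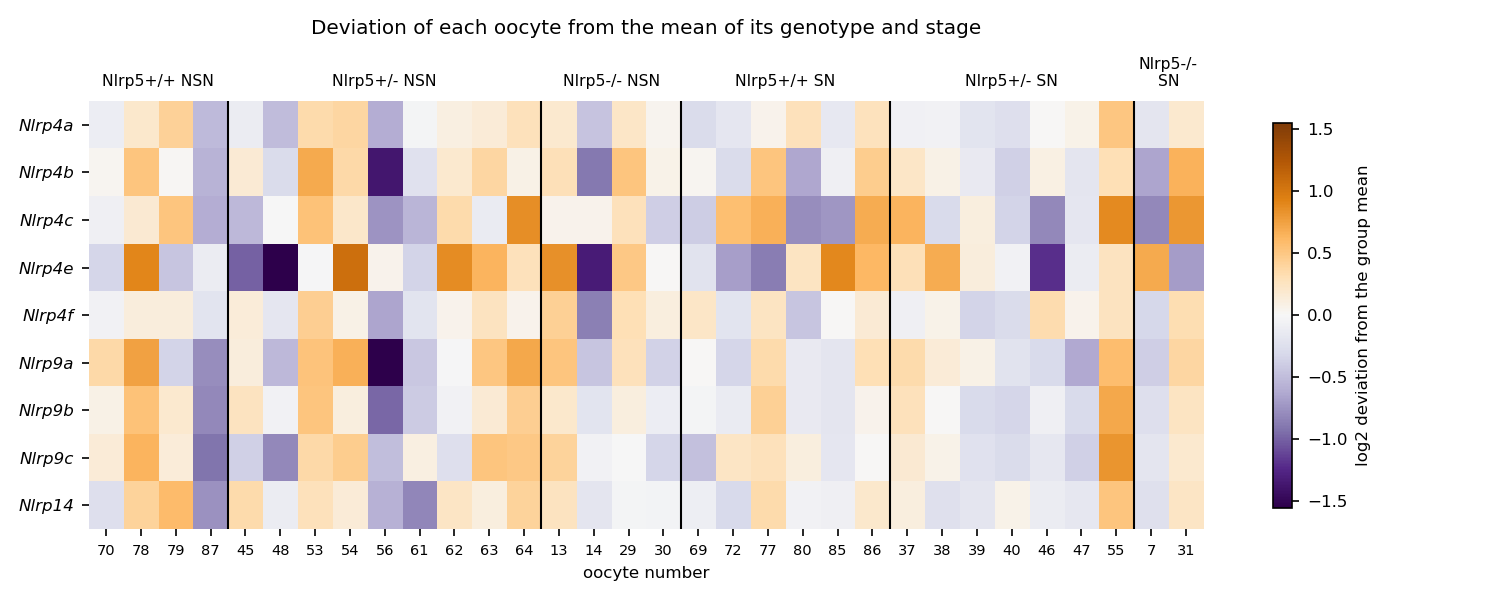
Log2 deviation of each member (lines) from the mean of its genotype and stage in each of the 32 staged oocytes (columns), with orange above and purple below the mean. Columns are mostly of 1 colour, as in oocytes 78, 87, 56 and 55, while the line of Nlrp4e differs from the others in several columns.

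The r with library depth ran from -0.40 (Nlrp9c) to -0.01 (Nlrp14) and that with the summed granulosa markers from -0.36 (Nlrp4f) to 0.17 (Nlrp4e). With oocytes 7, 13 and 14 dropped, the median r over the 36 pairs was again 0.62. The group means that were subtracted still included these oocytes.

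The genes most like each member, among those with a mean of at least 100, were mostly not members. For Nlrp4b they were Chek1 (0.96), which encodes a checkpoint kinase, Map4k5 (0.94) and Plaa (0.93). For Nlrp4f they were Esco1, Rlim and Usp46 (each 0.92). For Nlrp9a they were Mdm4 (0.92), a regulator of p53, Sypl (0.92) and Srp54c (0.90). Nlrp9b was closest to Cand1 (0.90), Ddias (0.89) and Ap3m1 (0.88), and Nlrp9c to Pex7 (0.90), Asz1 (0.89), a germ-cell protein of the piRNA pathway, and BC005537 (0.86). Cdc42bpa (0.86) and Topbp1 (0.85) were among the 3 genes closest to Nlrp14, and Nlrp4a was closest to Tnks (0.89), Spast (0.88) and Usp34 (0.86). Nlrp4c had Rapgef6, Rlf and Cbll1 at 0.83 each, and Nlrp4e was lower again with Vmn2r51 (0.69), Rccd1 (0.64) and Slc15a5 (0.62). Among the 8435 genes compared with each, another member ranked highest for Nlrp9b (Nlrp9a at place 9) and Nlrp14 (Nlrp9b at place 9) and lowest for Nlrp4e (Nlrp4a at place 260).

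Reads of paralogs can be hard to place, so likeness in sequence was set beside likeness in level. The coding sequences of the 5 Nlrp4 genes were 77.4 to 93.9% identical to one another over aligned bases, those of the 3 Nlrp9 genes 82.3 to 87.6%, and pairs across the groups 54.9 to 59.3%. The 3 Nlrp9 pairs had an r of 0.73 to 0.87 (median 0.75), all above the median of the 36. The 10 Nlrp4 pairs ran from 0.03 to 0.89 (median 0.47), with 3 above it, and the 23 pairs across groups from 0.09 to 0.85 (median 0.63), with 12 above it. At the ends of the Nlrp4 range were the most alike pair, Nlrp4c and Nlrp4e (93.9%, 0.03), and the least alike, Nlrp4b and Nlrp4f (77.4%, 0.89). The r of Nlrp4c and Nlrp4e differed by group, at 0.37 in Nlrp5+/- NSN, 0.60 in Nlrp5+/- SN and -0.52 in Nlrp5+/+ SN oocytes. That of Nlrp4b and Nlrp4f was 0.98, 0.67 and 0.91 in the same groups. The part of misplaced reads in these values was not tested.

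**Figure D5:**
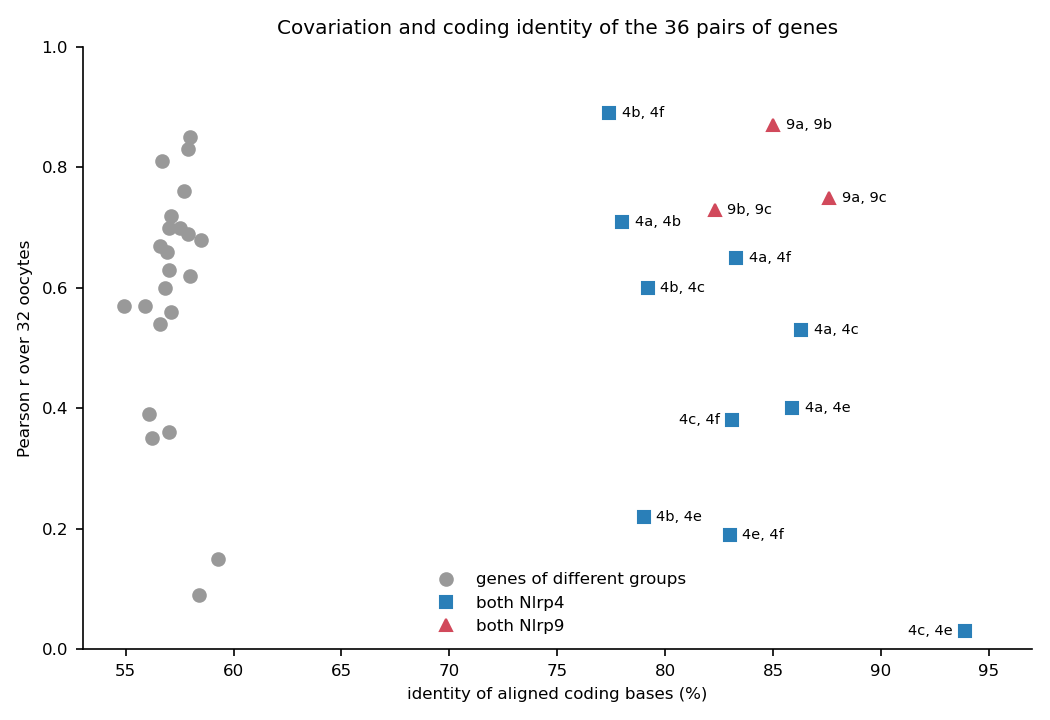
Pearson r of log2 deviations over the 32 staged oocytes (vertical axis) against the identity of aligned coding bases in percent (horizontal axis) for the 36 pairs of members, with pairs inside the Nlrp4 and Nlrp9 groups named. Pairs across groups reach an r of up to 0.85, pairs inside a group up to 0.89, and the pair at 93.9% lies near 0.

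Exact repeats were short in most members. Windows of 75 bases from the canonical transcript that also occurred, letter for letter, in a transcript of another gene made up 20.2% of Nlrp4e, 3.42% of Nlrp4c, 3.07% of Nlrp9b, 2.59% of Nlrp9a, 2.41% of Nlrp4f, 1.56% of Nlrp9c and 0.368% of Nlrp4a, and none of Nlrp4b or Nlrp14. At 150 bases only Nlrp4e kept any (3.40%). For Nlrp4e nearly all of these lay in the predicted genes Gm8486, Gm16443, Gm8685, Gm8728 and Gm4541, for which no entry was used here. Its counts are therefore the least certain of the 9, and reads of those copies in the Nlrp4e value were not tested.

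The other genes of the same complexes and families give the setting. All of the 7 SCMC genes looked at (Nlrp2, Nlrp5, Ooep, Tle6, Khdc3, Padi6 and Zbed3) were transcribed. Between Nlrp5-/- and Nlrp5+/+ NSN oocytes 2 had a log2 fold change of -0.5 or less, Nlrp5 itself (-3.11) and Ooep (-0.65), beside 13.2% of all genes. Tle6 (0.68) was the 1 at 0.5 or more, beside 15.8%. Among genes with a mean of at least 1000 these shares were 3.70 and 7.12%. For Ooep and Tle6 the groups overlapped, and single oocytes were not left out. Apart from Nlrp5, the study saw no sign of changed RNA levels among SCMC components. At SN only Nlrp5 (-2.42) was past the fold. Nlrp2, the other Nlrp gene of that list, had -0.24 at NSN and -0.14 at SN. Of 19 further genes of the NLR family, 17 had an entry and 3 passed the minimum of 10, Naip1 (mean normalized count 454), Nlrc4 (246) and Nod2 (227), none of them past the fold between Nlrp5-/- and Nlrp5+/+ at either stage. The inflammasome gene Nlrp3 averaged 1.60 normalized counts.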

How the data were processed

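RNA from single GV oocytes was converted to cDNA with a Smart-seq2-based protocol that keeps no molecular identifiers and was sequenced as paired reads. The authors deposited raw counts per gene, and the submitters' processing notes name Trim Galore, HISAT2 and GRCm38, whose coordinates the table carries, while the methods name GRCm39. The authors' own comparison tables (fold changes and p-values) were not used. Of 35373 entries, 52 repeated ones were left out. Counts were divided by median-of-ratios size factors over all 33 oocytes (0.542 to 1.97), and log2 fold changes are ratios of group means plus a pseudocount of 1. Genes with a mean of at least 10 formed the background, with 1000 added after the data were seen. The fold change step was tested on simulated data. TMM factors came from edgeR 4.0.16. Transcript lengths, repeats and coding identity came from GENCODE transcripts of GRCm39, which need not match the annotation counted. Intervals cover counting error only. Samples were grouped by label genotype and by the stage the study assigned. The genes named are the 9 members, Nlrp5, and for each member the 3 genes with the highest r among those with a mean of at least 100, except a gene that is not reported here. The members and lists were chosen with earlier results of these data known.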

Additional observations from a re-analysis of the deposited data

Results flagged for a closer look

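In 45 groups of 4 to 10 oocytes (9 genes in 5 groups of genotype and stage), 5 single values stood apart from the rest of their group by Dixon's criterion at the 95% level, which chance alone meets in about 1 of 20 groups. Of these, 3 belonged to Nlrp5+/- SN oocyte 55, with 8754 normalized counts of Nlrp4a, 11600 of Nlrp9c and 61301 of Nlrp14, each the highest of the 7 oocytes. This oocyte is 1 of 2 whose stage in the study differed from its place among the other oocytes. Nlrp5+/+ NSN oocyte 78 was highest for Nlrp4e, with 1244. Nlrp5+/+ SN oocyte 77 was highest for Nlrp9b, with 9729. No member had all oocytes of a genotype above the comparison group at 1 stage and below it at the other.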

How the results depend on the processing

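The medians of log2 fold changes over the 9 members moved by less than 1 SD in 275 of 277 alternatives. Of these, 162 left out 1 oocyte. The rest used CPM, TMM factors, size factors within the comparison, medians over oocytes, summed counts, a pseudocount of 5, other filters, first indexes or fewer oocytes. All 9 members passed the other filters, so those alternatives equal the main result by construction, for the medians and for single members alike. Of 2493 values of single members, 2465 also moved by less than 1 SD, and no value past the fold with all oocytes changed sign. The median correlation was set beside a different yardstick, the SD of r over the 36 pairs. It moved by less than that in 7 of 7 alternatives, but ran from 0.41 to 0.70 around the main value of 0.62. For the fold changes the SD is that over oocytes within groups and is wide. It was 0.42 for the median of Nlrp5-/- over Nlrp5+/+ at NSN, whose range without 1 oocyte was -0.32 to -0.03, and 0.26 at SN. Nlrp4c changed sign with 1 oocyte, from 0.92 to -0.71 for Nlrp5-/- over Nlrp5+/+ at SN. The exceptions among the medians came from the 2 Nlrp5-/- SN oocytes. Leaving out 1 oocyte at a time gave -0.80 (without oocyte 31) to -0.25 (without oocyte 7) for Nlrp5-/- over Nlrp5+/- at SN, and -0.79 (without oocyte 31) to -0.07 (without oocyte 7) for SN over NSN in Nlrp5-/- oocytes. For Nlrp5-/- over Nlrp5+/+ at SN the range was -0.71 to -0.26. Counts of members past the fold moved more. With summed counts, Nlrp5-/- over Nlrp5+/+ had 2 at -0.5 or less and 1 at 0.5 or more at SN (from 5 and 0), 2 at -0.5 or less at NSN (from 0) and 5 over all oocytes (from 2), and SN over NSN in Nlrp5-/- had 0 (from 3). With medians over oocytes the last 2 counts were 0 and 5. Without oocytes 7, 13 and 14, Nlrp5-/- SN oocytes had 1 member at -0.5 or less (Nlrp4e) and 1 at 0.5 or more (Nlrp4c) against Nlrp5+/+ and against Nlrp5+/- alike, and SN over NSN in Nlrp5-/- had 1 at -0.5 or less. No paired analysis was possible because the groups share no replicate numbers, though NSN and SN oocytes of a genotype share first indexes, within which values are given. Depth did not limit the members, whose lowest count in a library was 126.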

Other observations

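Within groups, Nlrp5 varied most closely with Nlrp14 and Nlrp4a among the members. Over the 32 staged oocytes, after subtraction of group means, the r of Nlrp5 with Nlrp14 was 0.69, with Nlrp4a 0.53 and with the other 7 members between 0.24 and 0.39. For comparison, all pairs of the 1783 genes with a mean of at least 1000 had a median r of 0.02 and an upper quartile of 0.33. The values for Nlrp9c (0.24), Nlrp4b (0.26) and Nlrp4f (0.27) were below that quartile. Nlrp4e, whose annotated end lies 23.6 kb before Nlrp5, had an r of 0.36. Without oocytes 7, 13 and 14 the value for Nlrp14 was again 0.69 and that for Nlrp4f was 0.10 where it had been 0.27. These values are descriptions, and a common origin of oocytes from 1 mouse was not tested.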
